A study of Mus musculus with 3 samples.

Results

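The 54 genes described here encode the core of Wnt signalling: all 19 mouse Wnt ligands, the 10 frizzled receptors, the coreceptors Lrp5 and Lrp6, the R-spondin receptors Lgr4 and Lgr5, 12 secreted antagonists, β-catenin with 3 genes of its destruction complex, and 5 nuclear factors. They were chosen by name from the 24467 gene symbols of the count tables. The counts came from sequencing of polyadenylated RNA of 5TGM1.BRE, a mouse myeloma line that tolerates the proteasome inhibitor bortezomib and engrafts in mice. All 3 samples formed 1 group: the cells derive from a myeloma of C57BL/KaLwRij mice, came back out of the marrow of engrafted mice, grew in 10 nM bortezomib and had no drug for the last 72 h or more before RNA extraction. The cell type label of replicate 1 omits the selection in bortezomib that the other 2 labels mention. As a model this is a cell line grown in medium, and neither its sensitive parent nor normal plasma cells were analysed here, so levels are described and no effect of resistance was measured.

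Wnt proteins are lipid-modified by the acyltransferase Porcn, carried to the surface by Wls, and bound by a frizzled receptor together with Lrp5 or Lrp6. In the canonical branch this stops a complex of Apc, Axin and kinases from marking β-catenin for degradation by the proteasome, and β-catenin then acts on DNA through a TCF or LEF factor. Marrow stroma is a known source of Wnt ligands and antagonists, and antagonists made by myeloma cells are known to restrain bone formation.

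Depth was 62303493, 45705994 and 59402218 gene counts for replicates 1, 2 and 3. Levels are given in CPM (counts per 1000000 counts of the library), and genes are compared with each other only in CPM per kilobase of exon. A gene with 0 counts in all libraries could have been at up to 0.0179 CPM, the level of 3 counts in the summed total, and this limit covers counting error only. Plasma cell markers were present: 7 of 8 were at 1 CPM or more in every library, with summed levels of 4454 to 4569 CPM, while Tnfrsf17 had a mean of 0.582 CPM. Markers of other cells were low. The 8 T cell markers summed to 0.455 to 0.610 CPM with Cd3e at 0 counts, the 5 endothelial markers to 0.0161 to 0.0438 CPM with Emcn at 0, the 6 myeloid markers to 0.109 to 0.421 CPM with S100a8 and S100a9 at 0, and the 6 B cell markers to 4.35 to 9.60 CPM with Cr2 at 0, 2 of them, Fcer2a and Ms4a1, at 1 CPM or more. Of 12 osteoblast and stromal markers, 1 reached 1 CPM, namely Alpl at 406 ± 15.8 CPM (SD, n = 3), and Col1a2 and Sp7 had 0 counts. The labels do not say whether the 3 samples were separate cultures, so SDs and p-values cover the spread between these samples only, and that spread may be technical.

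The cells held transcripts for receiving a Wnt signal at the surface and for controlling β-catenin, and almost none for a TCF or LEF factor, for a secreted antagonist or for the feedback target Axin2, while the feedback targets Znrf3 and Rnf43 were detected. Of the 54 members, 13 were at 1 CPM or more in all libraries (24.1%), against 40.9% of all symbols in the tables. A further 16 members had counts below that limit, and 25 had none in any library (46.3%), against 33.5% of all symbols. In RNA of bulk cells, transcripts in fewer cells and less transcript per cell cannot be told apart. The 13 detected members were 3 ligands, 4 frizzled receptors, both coreceptors, Ctnnb1, Axin1, Apc and Bcl9. Per kilobase Ctnnb1 led the order, followed by Axin1, Fzd6, Wnt6, Wnt10a, Lrp6, Apc, Bcl9, Fzd7, Wnt5b, Fzd5, Fzd2 and Lrp5. Each gene lay above the next in every library, except that the values of Wnt6 and Wnt10a, of Fzd7 and Wnt5b, and of Fzd5 and Fzd2 overlapped. This order rests on the length of all exons joined. Lrp6 has 13672 such bases but 9368 in its longest transcript, and with the latter its mean would lie above that of Wnt10a. The place of Lrp6 thus depends on the length used.

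**Figure D1:**
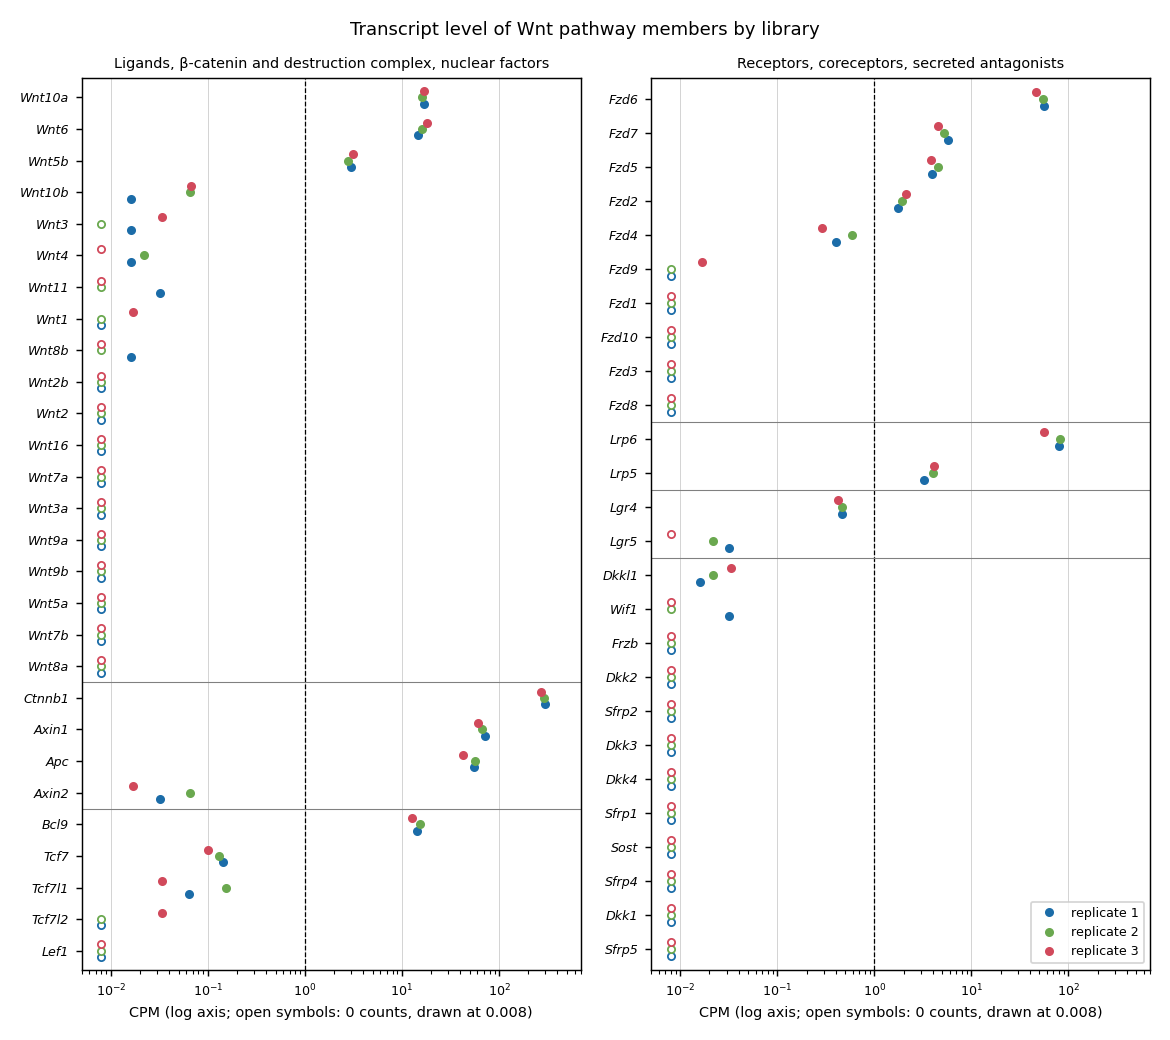
Level of the 54 members in each library, in CPM on a log axis, grouped by role. Each symbol is 1 library, open symbols mark 0 counts, and the dashed line is 1 CPM. Lef1, 10 Wnt genes, 4 frizzled genes and 10 antagonist genes have only open symbols, while Ctnnb1 lies between 269.9 and 301 CPM.

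Promoters of 4 members at opposite ends of this range are shown because transcribed and silent members alike can have a CpG-rich start. Each line gives the 250 bases before the start that RefSeq lists first (GRCm38.p6, the assembly of mm10), 5′ to 3′, with CpG dinucleotides in capitals.
Wnt6, chr1:74771642-74771891, plus strand: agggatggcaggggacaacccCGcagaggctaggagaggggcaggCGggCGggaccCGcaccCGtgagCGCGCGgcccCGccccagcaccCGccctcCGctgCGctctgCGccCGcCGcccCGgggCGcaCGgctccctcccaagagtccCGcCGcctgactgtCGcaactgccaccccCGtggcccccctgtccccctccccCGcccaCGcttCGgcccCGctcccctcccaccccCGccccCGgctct
Ctnnb1, chr9:120933150-120933399, plus strand: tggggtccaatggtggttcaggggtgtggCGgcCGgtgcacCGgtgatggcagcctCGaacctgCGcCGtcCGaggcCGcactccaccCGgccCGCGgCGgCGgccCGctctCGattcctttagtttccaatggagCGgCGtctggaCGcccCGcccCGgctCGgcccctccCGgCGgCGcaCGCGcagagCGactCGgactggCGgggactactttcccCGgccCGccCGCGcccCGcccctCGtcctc
Lef1, chr3:131110047-131110296, plus strand: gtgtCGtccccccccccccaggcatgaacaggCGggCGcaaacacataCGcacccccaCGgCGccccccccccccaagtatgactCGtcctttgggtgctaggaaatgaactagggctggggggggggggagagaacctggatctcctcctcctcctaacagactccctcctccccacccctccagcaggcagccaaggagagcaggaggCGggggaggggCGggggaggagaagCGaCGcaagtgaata
Axin2, chr11:108920099-108920348, plus strand: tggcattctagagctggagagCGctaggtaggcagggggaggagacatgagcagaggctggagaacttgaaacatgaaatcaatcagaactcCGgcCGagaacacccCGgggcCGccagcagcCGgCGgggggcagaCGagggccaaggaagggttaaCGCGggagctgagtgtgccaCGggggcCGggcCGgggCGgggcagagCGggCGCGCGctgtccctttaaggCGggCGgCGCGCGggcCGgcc

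Wnt6 and Ctnnb1, both transcribed, had 28 and 35 CpG in this window, and Axin2 and Lef1, both at or near 0 counts, had 24 and 11. The median over 17449 symbols with a promoter in the table was 10, so Lef1 was near it and the other 3 were above. Promoters were listed for 37 of the 54 members. Those of 6 detected members had a median of 30 CpG, those of 15 members with few counts 24, and those of 16 members at 0 counts 16, with a range of 6 to 48 among the last. None of the 4 windows holds CTTTGA or CTTTGT on either strand, letters shared by many TCF/LEF sites, which 25.9% of the 17449 promoters hold and 8 of the 37 member promoters hold.

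Of the 19 ligand genes 3 were transcribed, and 2 of these are neighbours. Wnt6 lies on chromosome 1 at 74771892 to 74785322, and Wnt10a follows it on the same plus strand at 74791516 to 74804179 (GRCm38), with 6193 bases between them. Wnt6 was at 14.7, 16.2 and 18.3 CPM in replicates 1, 2 and 3. Wnt10a was at 16.8, 16.2 and 16.9 CPM. Wnt10a is known from the development of skin and teeth. Both were well above 1 CPM in every library, and replicate 3 was the highest for Wnt6. Wnt5b, a ligand mostly linked to β-catenin-independent signalling (chromosome 6, 119432531 to 119544347, minus strand), was at 2.97, 2.80 and 3.16 CPM. Per kilobase Wnt6 made up 48.6 ± 2.58% of the summed Wnt level, Wnt10a 43.9 ± 2.39% and Wnt5b 7.31 ± 0.305% (SD, n = 3 for each).

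The other 16 ligand genes together gave few reads. Wnt10b, a paralog of Wnt10a, had 1, 3 and 4 counts, and Wnt3 had 1, 0 and 2. Wnt1, Wnt4, Wnt8b and Wnt11 had 1 or 2 counts over all libraries. Wnt2, Wnt2b, Wnt3a, Wnt5a, Wnt7a, Wnt7b, Wnt8a, Wnt9a, Wnt9b and Wnt16 had none, among them Wnt3a, the ligand used most to activate the canonical branch in culture.

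Transcripts for the dedicated steps of Wnt export were at or near 0 counts. Porcn, the acyltransferase that Wnt secretion requires, lies on chromosome X at 8193848 to 8206525 and had 0 counts in all 3 libraries. Wls, the carrier of Wnt proteins on chromosome 3 at 159839672 to 159938664, had 0, 0 and 2 counts. The nearest 3 listed protein-coding genes on each side of Porcn were looked at after its value was seen: Rbm3 was at 296 ± 13.2 CPM, Ebp at 40.4 ± 2.91 CPM, Tbc1d25 at 12.7 ± 0.296 CPM and Ftsj1 at 38.2 ± 0.585 CPM (SD, n = 3 for each), while Slc38a5 and Ssxb10 had 0 counts. Of the 8 genes of the secretion list 4 were detected, against 40.9% of all symbols. These 4 serve cargo traffic in general: Snx3 at 129 CPM per kilobase, Tmed5 at 58.6, Vps35 at 41.3 and Tmed2 at 32.8 (means of 3 libraries). Notum, an enzyme that removes the lipid from Wnt proteins, had 0 counts, and Trabd2b, a protease that cleaves them, had 1 count in replicate 1.

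On the receiving side, Fzd6 dominated the frizzled genes. Fzd6, known mainly from planar polarity and as a receptor that can restrain canonical signalling, lies on chromosome 15 at 39006034 to 39038188. It was at 56.2, 54.6 and 46.1 CPM in replicates 1, 2 and 3, with replicate 3 the lowest. Per kilobase it made up 82.4 ± 0.864% of the summed frizzled level (SD, n = 3). Fzd7 took 8.63 ± 0.379%, Fzd5 4.47 ± 0.401% and Fzd2 4.05 ± 0.783% (SD, n = 3 for each). In CPM, Fzd7 was at 5.75, 5.16 and 4.56, Fzd5 at 3.88, 4.49 and 3.80, and Fzd2 at 1.75, 1.93 and 2.12. Part of the Fzd5 exons, 1233 bases or 17.8%, overlap the gene Gm38058 on the opposite strand. For Fzd6 the overlap with Gm26704, also on the opposite strand, is 3.15%. Neither overlapping gene was among the counted symbols, so its share in these reads is unknown. Fzd4, the receptor of the vascular ligand norrin, had 25, 27 and 17 counts, and Fzd9 had 0, 0 and 1. Fzd1, Fzd3, Fzd8 and Fzd10 had none.

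**Figure D2:**
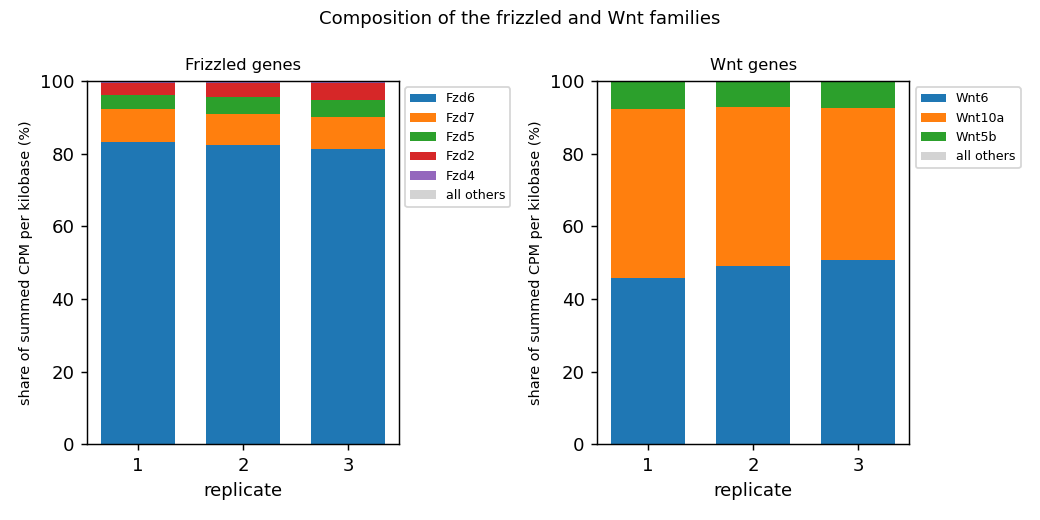
Share of each gene in the summed CPM per kilobase of its family, in percent, for each replicate. The left panel holds the 10 frizzled genes, of which Fzd6 takes 81.4 to 83.1%, and the right panel the 19 Wnt genes, of which Wnt6 and Wnt10a take nearly all.

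Lrp6 was the main coreceptor transcript. It was at 80.2, 81.5 and 56.1 CPM, with replicate 3 below the other libraries (chromosome 6, 134446476 to 134566965, minus strand). Lrp5, its paralog, was at 3.27, 4.004 and 4.16 CPM, below Lrp6 in every library. Per kilobase Lrp6 exceeded Lrp5 13.4-fold, at a log2 ratio of 3.75 ± 0.44 (SD, n = 3), found in 3 of 3 libraries. The R-spondin receptor Lgr4, which protects frizzled receptors from turnover, had 29, 21 and 25 counts, and the stem cell marker Lgr5 had 2, 1 and 0.

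The other surface genes of the pathway included transcribed genes of receptor folding and turnover, while R-spondins and tyrosine kinase receptors of Wnt were at or near 0. Of 18 fixed receptor partners, 4 reached 1 CPM in all libraries, against 40.9% of all symbols. Mesd, listed under its older symbol Mesdc2 and a chaperone of Lrp5 and Lrp6, was at 33.9 CPM per kilobase, Kremen1, a receptor of Dkk proteins, at 3.85, and Znrf3, a ubiquitin ligase that removes frizzled receptors, at 2.64 (means of 3 libraries). The related ligase Rnf43 was at 6.17 ± 0.702 CPM (SD, n = 3). Ror1, Rspo2, Rspo3, Rspo4, Apcdd1, Gpc3 and Gpc4 had 0 counts in all libraries. The alternative Wnt receptors Ror2, Ryk and Ptk7 had 1 to 3 counts in all.

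No gene of the antagonist group had more than a few counts. Of the 12 antagonist genes, 10 had 0 counts in every library: Dkk1, Dkk2 and Dkk4, whose products bind Lrp5 and Lrp6, their relative Dkk3, Sfrp1, Sfrp2, Sfrp4, Sfrp5 and Frzb, which bind Wnt proteins, and Sost, whose product sclerostin is made by osteocytes. Wif1, another Wnt-binding protein, had 2, 0 and 0 counts, and Dkkl1, a relative of the Dkk genes, had 1, 1 and 2. The summed mean level of all 12 was 0.0346 CPM. Dkk1 lies on chromosome 19 at 30545863 to 30549665 and Sost on chromosome 11 at 101962458 to 101967015, both on the minus strand (GRCm38).

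Ctnnb1, which encodes β-catenin, was the most abundant member. It was at 301, 292 and 269.9 CPM, with replicate 3 the lowest, and lies on chromosome 9 at 120929216 to 120960507. Part of its exons, 759 bases or 14.6%, overlap the gene Ulk4 on the opposite strand, which had 222 counts in all against 48087 for Ctnnb1. Axin1, the scaffold of the destruction complex, was at 72.3, 67.2 and 61.0 CPM. Apc, which presents β-catenin to that complex, was at 55.1, 56.6 and 43.0 CPM, with replicate 3 the lowest. Per kilobase Ctnnb1 exceeded Apc 17.4-fold, at a log2 ratio of 4.12 ± 0.15 (SD, n = 3), in 3 of 3 libraries, and 5.61-fold without the length correction.

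Axin2, the paralog of Axin1 and a feedback target of canonical signalling in most tissues, lies on chromosome 11 at 108920349 to 108950783 and had 2, 3 and 1 counts. Axin1 had 4502, 3073 and 3623. Nearly all Axin transcripts were thus those of Axin1.

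Of 25 other genes of the destruction complex and Dishevelled, 20 reached 1 CPM in all libraries, against 40.9% of all symbols. The highest per kilobase were the kinase Csnk1g3 at 71.2 CPM per kilobase, the phosphatase subunit Ppp2ca at 53.8 and the kinase Gsk3a at 45.3 (means of 3 libraries). The kinase Csnk1a1 was at 36.0 CPM per kilobase, from 378 ± 27.3 CPM (SD, n = 3). Its exons cover 10502 bases together but 4083 in its longest transcript. With the latter as length it would lead this list, so the order depends on the length used. Gsk3a exceeded its paralog Gsk3b 4.88-fold per kilobase, with a log2 ratio of Gsk3b to Gsk3a of -2.29 ± 0.20 (SD, n = 3), and 1.44-fold without the length correction. Dvl1, Dvl2 and Dvl3, which relay the signal from the receptor, were at 45.9 ± 0.138, 29.1 ± 0.213 and 15.8 ± 3.67 CPM (SD, n = 3 for each). Amer1, which brings Apc to the membrane, the feedback inhibitor Nkd1, and Dact2 had 0 counts.

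Transcripts of the DNA-binding partners of β-catenin were nearly missing. Lef1, on chromosome 3 at 131110471 to 131224356, had 0 counts in every library. Tcf7 had 9, 6 and 6 counts, Tcf7l1 had 4, 7 and 2, and Tcf7l2 had 0, 0 and 2. The 4 genes together gave 13, 13 and 10 counts, or 0.220 ± 0.0589 CPM (SD, n = 3), while Ctnnb1 alone was at 287 ± 15.8 CPM (SD, n = 3). Tcf7 and Lef1 are also T cell genes, and the T cell markers lay in the same low range, from 0 counts for Cd3e to 31 counts in all for Cd28. Their part in the few Tcf7 counts was not tested.

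Most of the listed cofactors that bind β-catenin or TCF proteins were present. Bcl9, which links β-catenin to Pygo2, was at 14.3, 15.5 and 12.6 CPM. Per kilobase it exceeded its paralog Bcl9l 46.6-fold, at a log2 ratio of Bcl9l to Bcl9 of -5.54 ± 0.20 (SD, n = 3). Bcl9l had only 19, 16 and 13 counts, so the size of this ratio is uncertain. Of 19 other cofactors, 14 reached 1 CPM in all libraries, against 40.9% of all symbols. Tle1 had 1 count in all and Ctbp2 had 18. The highest per kilobase were Aes at 56.3 CPM per kilobase, Ctbp1 at 21.3 and Tle4 at 16.3 (means of 3 libraries), all of them corepressors or their relatives. Hbp1, at 12.5, has 6167 bases of exon but 3142 in its longest transcript. With the latter as length it would lie above Tle4, so the place of Tle4 depends on the length used. Pygo1 had 0 counts, and Pygo2 was at 50.4 ± 0.487 CPM (SD, n = 3). Jup, the plakoglobin paralog of β-catenin, had 49, 35 and 38 counts.

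Textbook target genes of canonical signalling ranged from abundant to 0 counts. Of 16 targets, 5 reached 1 CPM in all libraries and 7 had 0 counts, against 40.9% and 33.5% of all symbols. The 5 were Myc at 171 CPM per kilobase, the adhesion receptor gene Cd44 at 99.1, Znrf3 at 2.64, Ccnd1 at 1.55 and Rnf43 at 0.941 (means of 3 libraries). The other 11 were at or near 0: Axin2, Lef1, Tcf7 and Lgr5 as above, Ascl2 with 11, 20 and 20 counts, and Nkd1, Notum, Sp5, Tnfrsf19, Apcdd1 and Dkk1 with none. Of these 16 genes 5 are also members, and the list was not chosen independently of them. The median of the 16 mean levels was 0.0281 CPM, against 0.0764 CPM over all symbols.

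**Figure D3:**
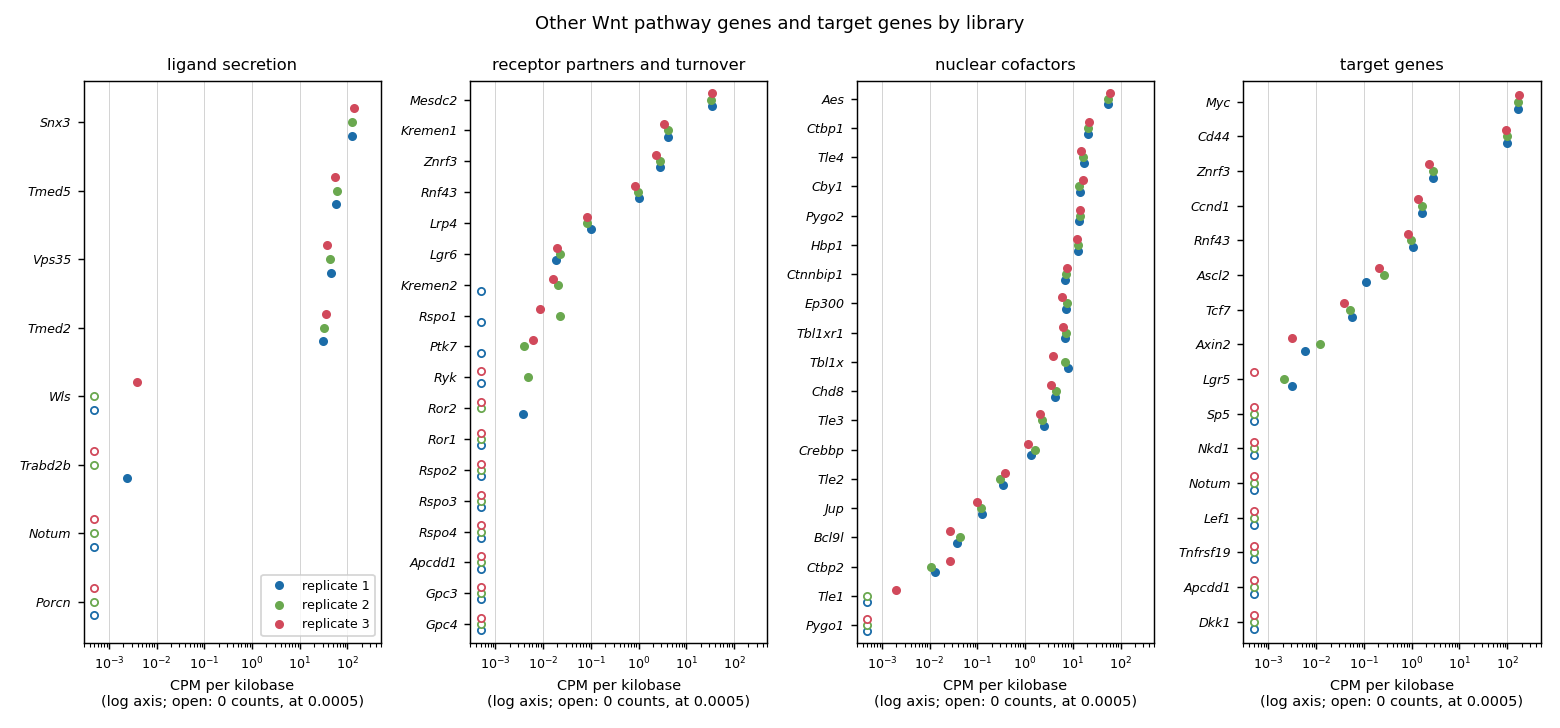
Level of other pathway genes and of target genes in each library, in CPM per kilobase on a log axis, with open symbols for 0 counts. Porcn, Notum and Lef1 have only open symbols, and Wls has a count only in replicate 3, whereas Snx3, Aes and Myc exceed 50 CPM per kilobase in every library.

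In the β-catenin-independent branches, the transcribed genes were widely used GTPases, kinases and factors. Of 20 fixed genes, 7 reached 1 CPM in all libraries, near the 40.9% of all symbols. They were led per kilobase by the small GTPases Rhoa at 51.3 CPM per kilobase and Rac1 at 43.3 and by the calcium-regulated factor Nfatc3 at 17.1 (means of 3 libraries). The planar polarity genes Vangl1, Prickle2 and Prickle3 had 0 counts, Vangl2 had 1 count in all, and Prickle1 was at 1.03 ± 0.191 CPM (SD, n = 3).

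The 3 libraries were then compared with each other, each in turn against the other 2, since the labels give no other comparison. The test was edgeR's quasi-likelihood test with Benjamini-Hochberg adjustment over 11308 genes. It takes the spread between the other 2 libraries and assumes that the lone library varies like them. For replicates 1 and 2 that spread includes the difference of replicate 3, which lowers what the test can call. Few calls for replicates 1 and 2 therefore cannot show that these libraries are alike. In all, 0.0796% and 0.0531% of genes passed for replicates 1 and 2, and none of the 15 members tested did. At an unadjusted p under 0.05 by edgeR, or by DESeq2 with adjustment, the members' count for these replicates was also 0. These calls describe single libraries, since the library set apart has no replicate of its own, and they measure no condition. In replicate 3, 24.8% of all genes were higher and 26.8% lower, and of the 15 members 1 was higher and 6 were lower. The share of members called, in either direction, was thus near that of all genes, 51.6%. The median log2 fold change of the 15 members was -0.11, against 0.01 over all genes tested. DESeq2 gave an adjusted p in replicate 3 for only 10 of the 15 members. By DESeq2, 0 members were higher and 3, Lrp6, Apc and Fzd6, lower in replicate 3, against 14.8% and 19.9% of the genes with an adjusted p.

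Lrp6 differed most among the called members, with a log2 fold change of -0.50 in replicate 3, where it was at 56.1 CPM against 80.2 and 81.5. Apc followed at -0.34. Fzd6 was at -0.23, Bcl9 at -0.20, Axin1 at -0.17 and Ctnnb1 at -0.10 on the log2 scale. Wnt6 was the member higher in replicate 3, at 0.28. Lrp5, at 0.24, did not pass, nor did Wnt10a at 0.06 and Fzd7 at -0.23.

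This difference moved with transcript length. Across the 11235 tested genes with a length, the Spearman correlation between exon length and the log2 fold change of replicate 3 was -0.59, a description over genes of the same libraries. The median log2 fold change was 0.23 in the bin of shortest genes among 5 of near-equal size, which holds Wnt6, and -0.21 in the bin of longest genes, which holds Lrp6, Apc, Bcl9 and Lrp5. The fit with trends removed, given next, also applied the overall shift of each library again on top of TMM scaling, which raised replicate 3. For Lrp6 that scaling alone changed the value from -0.53 to -0.50. With the trends on length and GC content removed, 3 members stayed lower, Lrp6 at -0.20, Axin1 at -0.17 and Fzd6 at -0.15, and Lrp5 passed as higher at 0.45. Wnt6, Apc, Bcl9 and Ctnnb1 no longer passed, at 0.11, -0.03, -0.02 and -0.02. In that fit 20.9% of all genes were higher and 11.9% lower in replicate 3.

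**Figure D4:**
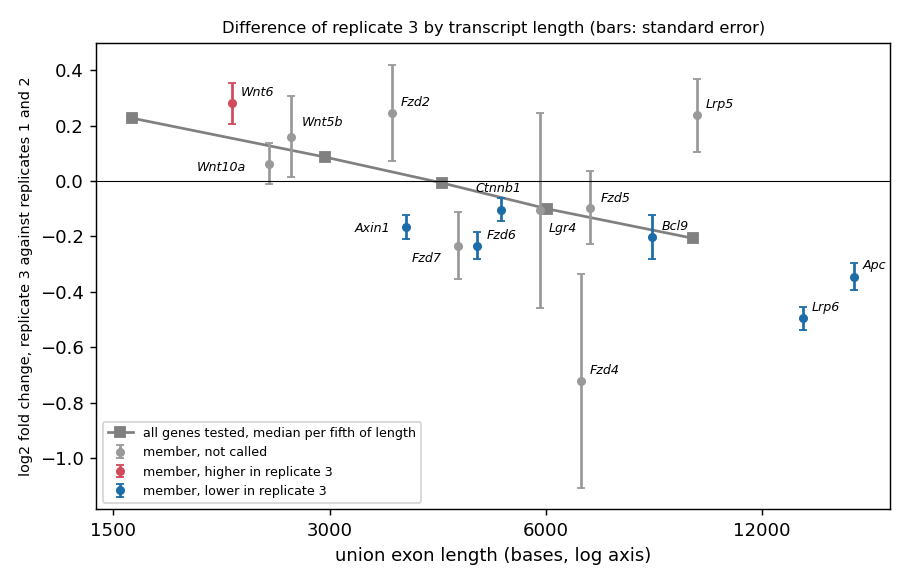
Log2 fold change of replicate 3 against replicates 1 and 2 for the 15 members tested, plotted on exon length in bases (log axis), with bars for the standard error and grey squares for the median of all genes in each of 5 length bins. Wnt6 lies at 0.28 among the short transcripts, and Lrp6 and Apc lie at -0.50 and -0.34 among the long ones, where the median of all genes is also below 0.

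Other pathway genes differed in both directions. Of 58 tested pathway genes that are not members, 9 were higher and 23 lower in replicate 3, where 24.8% and 26.8% of all genes were. With the trends removed 14 were higher and 7 lower, near the shares of all genes in that fit, 20.9% and 11.9%. Among them Tnks, a tankyrase that destabilises Axin proteins, was chosen for mention after its values were seen. It was at 25.7, 24.2 and 9.61 CPM in replicates 1, 2 and 3, a difference of -1.35 on the log2 scale, and -1.04 with the trends removed. Tbl1x, a cofactor that binds β-catenin, was likewise named after its values were seen, at -0.94, and at -0.77 with the trends removed.

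Beyond counting noise, 9 of the 15 members varied between libraries by a chi-square test of homogeneity with Benjamini-Hochberg adjustment, against 62.2% of all genes. Without replicate 3, 1 of the 15 did, against 8.81% of all genes. The ligands Wnt10a and Wnt5b were among the 6 members whose counts did not pass, with adjusted p of 0.719 and 0.628 by the chi-square test, which takes counts as independent although PCR copies are not.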

How the data were processed

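RNA with poly(A) tails from 3 samples was sequenced. Values are raw counts per gene symbol as deposited, in a table for each sample. Tools named in the submitters' processing notes are STAR, cutadapt 4.2 and bcl2fastq, and the build is mm10. How genes were counted, with which annotation and strand setting, is not given in the sources used here. Therefore, reads of overlapping genes on opposite strands cannot be told apart. Sample titles gave 1 group. The label numbers name replicates.

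Counts were divided by the library total to give CPM. Exon lengths and positions came from GENCODE M21 (GRCm38), in which all 54 members matched, and promoters from RefSeq (GRCm38.p6). The edgeR 4.0.16 quasi-likelihood test in R 4.3.3 used TMM scaling and filterByExpr, which kept 11308 genes. Each library in turn was tested against the remaining 2, which leaves 1 residual degree of freedom, at an adjusted p of 0.05. Its SE is the absolute log2 fold change divided by the square root of F. Scripts were tested on simulated data with no length trend and with a smaller coefficient of variation than the 9.39% estimated here. That test therefore gives no error rates for these data.

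The members, gene lists and the rule for named genes were chosen with earlier results of these data known. The rule names all members by level, every member called, the 3 highest genes per kilobase and those at 0 counts of each pathway list, all target genes and the paralog pairs. Alternatives were other scaling (TMM or RLE size factors), no low-count filter, DESeq2 1.42.0, loess removal of length and GC trends (span 0.3), other detection limits, thinning, other lengths, and leaving out each replicate. The loess offsets came from CPM without TMM scaling and were added to TMM-scaled library sizes. That fit therefore removes the trends and also counts the overall shift of each library again. For ratios an exact sign-flip test over 3 libraries could not pass the threshold, and none was run. SciPy 1.17.1 and pandas 2.3.3 in Python 3.11.15 did the rest.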

Additional observations from a re-analysis of the deposited data

How the results depend on the processing

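The number of members at 1 CPM or more in all libraries stayed at 13 under TMM or RLE scaling and thinning to the smallest library, and was 12 at a limit of 2 CPM and 15 at 10 counts or more. Members called in replicate 3 changed from 1 higher and 6 lower to 0 higher and 3 lower with DESeq2, and to 1 higher, Lrp5 in place of Wnt6, and 3 lower with length and GC trends removed; the cause was not tested. Members that varied beyond counting noise numbered 1 to 9 when a replicate was left out, with 1 without replicate 3. Wnt6, Bcl9, Ctnnb1 and Axin1 did not pass with DESeq2. The share of Fzd6 was 83.9% with the longest transcript as length. The log2 ratio of Ctnnb1 to Apc was 4.31 with the longest transcript and 2.49 without lengths, that of Lrp6 to Lrp5 4.24 without lengths, that of Bcl9l to Bcl9 -5.77 with the longest transcript, and that of Gsk3b to Gsk3a -0.53 without lengths. Leaving out 1 library in a contrast leaves 1 against 1 and no test. No paired analysis was possible because the samples form 1 group. Depth limits what can be said of members with few counts, since 3 counts are 0.0482 to 0.0656 CPM in a library.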
